A study of Mus musculus with 24 samples.

Results

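Transcripts of 10 genes of the JAK-STAT3 route and its feedback inhibitors were examined in SIM-A9 cells exposed to neuro-probes: Socs1, Socs2, Socs3, Socs5, Socs6, Cish, Jak2, Stat3, Il10ra and Il6ra. The 10 were taken from a list of symbols, matched to the Ensembl identifiers of the count table through GENCODE mouse names, and are 10 of the 54838 genes in the table. All 10 passed the filter on low counts, which left 13116 genes for testing.

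Cytokines such as interleukin-6 and interleukin-10 bind receptor chains that carry JAK kinases, the kinases phosphorylate the transcription factor STAT3, and STAT3 enters the nucleus and switches on genes. Among those genes are members of the SOCS family (suppressors of cytokine signalling, with CISH as a close relative), whose proteins block the receptors or the kinases and so close a negative feedback loop. In microglia and macrophages, interleukin-10 acts through STAT3 to restrain inflammatory gene expression, and SOCS3 is best known for dampening the interleukin-6 response.

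SIM-A9 is a mouse microglial cell line. Its cells stood in serum-free medium for 2 h, received a probe, and were lysed 2 h later for poly-A RNA sequencing, with 3 libraries in each of 8 groups. The design compares inflammatory responses to the probes with that to LPS, bacterial lipopolysaccharide. Each library held between 17364272 and 29259221 counts.

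The control cells received no probe. The labels give 1 addition for all groups, control included: 30 µL of a 10x stock to 270 µL of medium. The probes were (GT)6 SWCNT (single-walled carbon nanotubes named for a short DNA strand of G and T bases), COOH SWCNT (carboxylated nanotubes), Fura-2 (a dye that reports calcium), AAV (adeno-associated virus), and the dyes Di-2-ANEPEQ and DiBASC2. The labels give no dose, and every group, control included, had the serum-free step and the same line. A single cultured line holds none of the neurons, astrocytes or vessels around microglia in the brain. In such bulk RNA, fewer expressing cells and less RNA per cell cannot be told apart. Nothing in the labels says that libraries of a group came from separate cultures, so p-values measure the spread between these libraries. All 12 microglia and macrophage markers averaged above 1 CPM (counts relative to library size, adjusted by TMM factors), and their sum lay between 1849 and 2091 CPM in every library. The microglial genes P2ry12 and Tmem119 were low, at means of 2.28 and 3.79 CPM, against 516 CPM for Csf1r. Of the 22 markers of astrocytes, neurons, oligodendrocytes, endothelial cells, T cells, B cells and fibroblasts, Mbp alone averaged above 1 CPM.

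Levels of different genes are compared here per kilobase of annotated exon. In control cells the order was Stat3 at 10.6 CPM per kb, Il6ra at 8.25, Jak2 at 4.43, Socs5 at 4.32, Il10ra at 3.60, Socs6 at 2.37, Socs3 at 2.23, Socs2 at 0.249, Cish at 0.135 and Socs1 at 0.0942. The transcription factor and a receptor were thus the most abundant transcripts at rest, and the inducible inhibitors Cish and Socs1 the scarcest. In LPS the order changed at the top, with Socs3 at 45.9 CPM per kb, Il10ra at 12.3, Stat3 at 12.2 and Jak2 at 9.72. Stat3 and Il10ra had nearly equal levels per kilobase in LPS, while Socs3 stood well above both. The length used joins the exons of all annotated transcripts of a gene, 9527 bases for Stat3 and 3498 for Il10ra. Before division by length, Stat3 was at 116 CPM in LPS and Il10ra at 42.9 CPM. The order per kilobase therefore depends on the annotated length, which can exceed that of a single transcript.

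**Figure D1:**
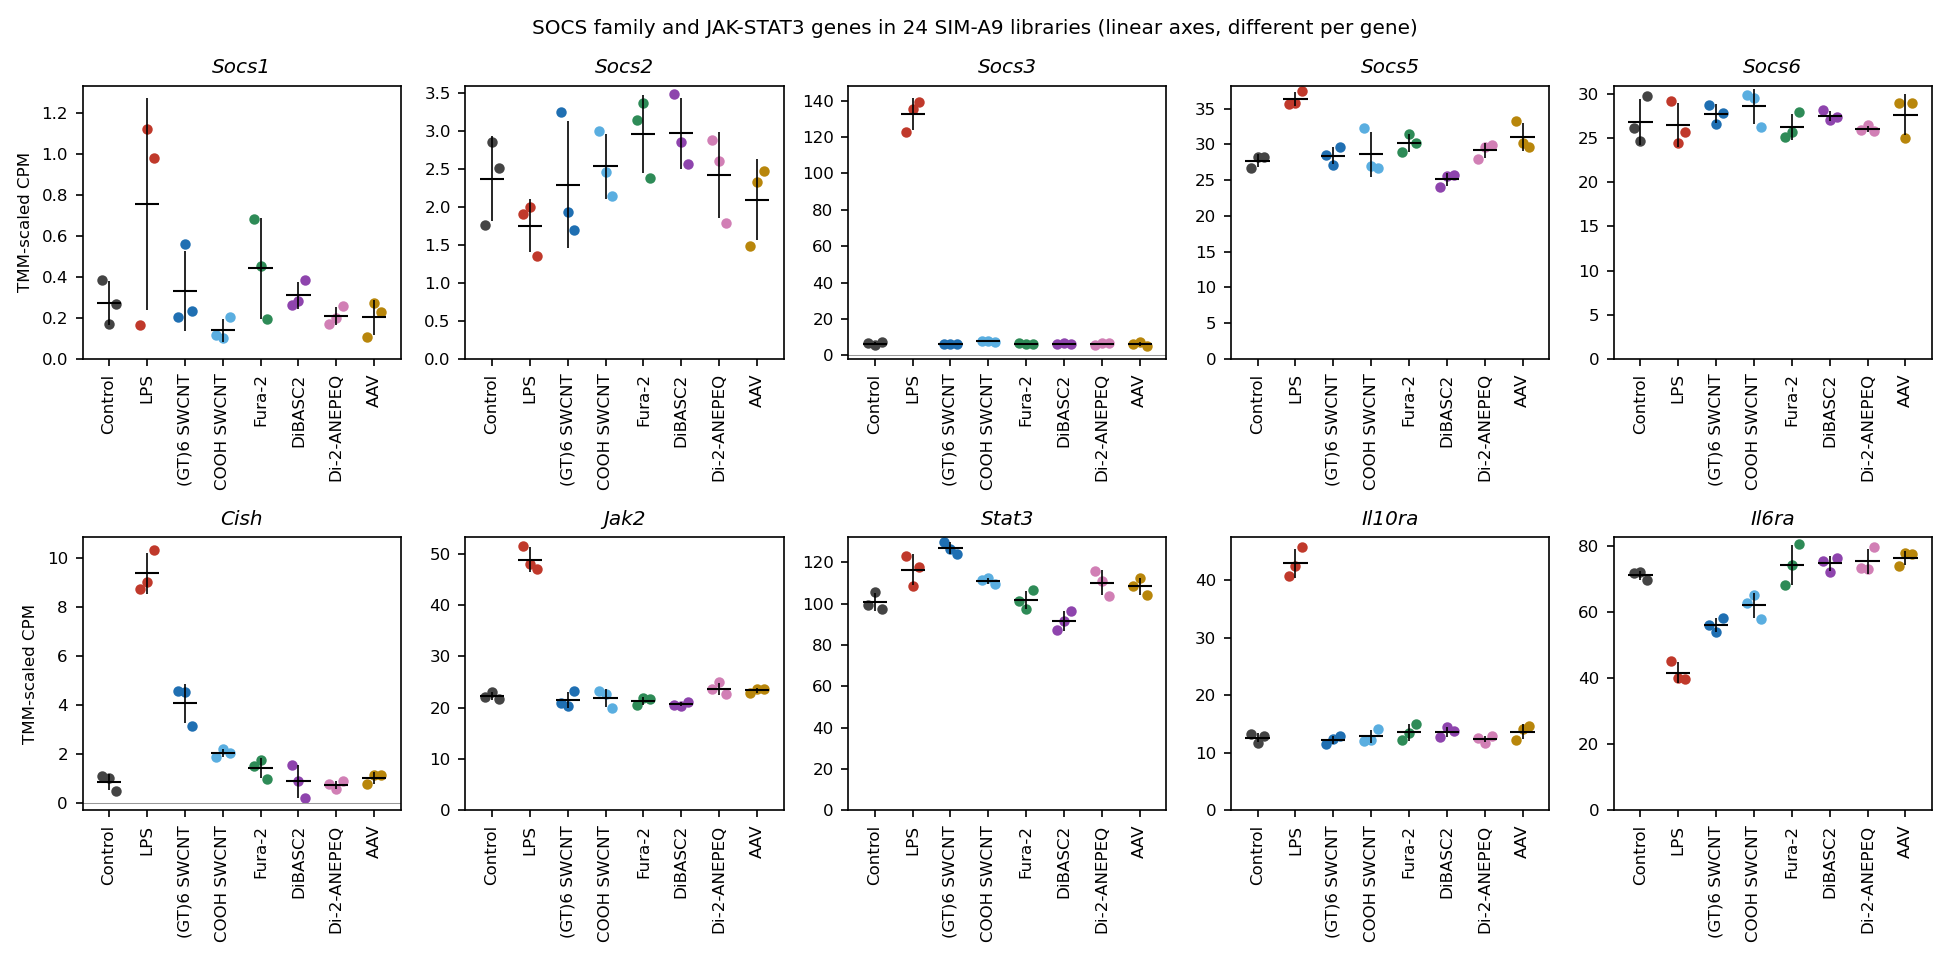
TMM-scaled CPM (y axis, linear, a separate scale for each gene) of the 10 genes in the 8 groups (x axis). Each point is a library, the horizontal bar is the mean and the vertical line the SD of 3 libraries; Socs3 and Il10ra stand high in LPS alone, Cish descends from LPS through (GT)6 SWCNT to COOH SWCNT, and Il6ra is lowest in LPS.

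LPS moved most of the 10 genes: 8 were called at an adjusted p under 0.05, 7 higher (Socs1, Socs3, Socs5, Cish, Jak2, Stat3 and Il10ra) and 1 lower (Il6ra), where 28.3% of all tested genes were called (13.8% higher, 14.5% lower). Both nanotube groups called the same 3 genes against the control libraries they share: Cish and Stat3 rose and Il6ra fell. The background was 20.4% of tested genes in (GT)6 SWCNT (9.90% higher, 10.5% lower) and 20.0% in COOH SWCNT (9.39% higher, 10.6% lower), so 3 of 10 is near the share of all genes. None of the 10 was called in the other 4 groups with edgeR's quasi-likelihood test. There 0.252% of tested genes were called in Fura-2, 5.47% in DiBASC2, 3.08% in Di-2-ANEPEQ and 5.00% in AAV. At an unadjusted p under 0.05 the counts were 0, 2, 1 and 2, in the same order. The DESeq2 test also called 0 of the 10 in each of these 4 groups. The median log2 fold change of the 10 was 0.76 in LPS, where that of all tested genes was −0.01. For (GT)6 SWCNT it was −0.01 beside −0.02 over all tested genes, and for COOH SWCNT 0.07 beside 0.00. In the other 4 groups it lay between 0.00 and 0.09.

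**Figure D2:**
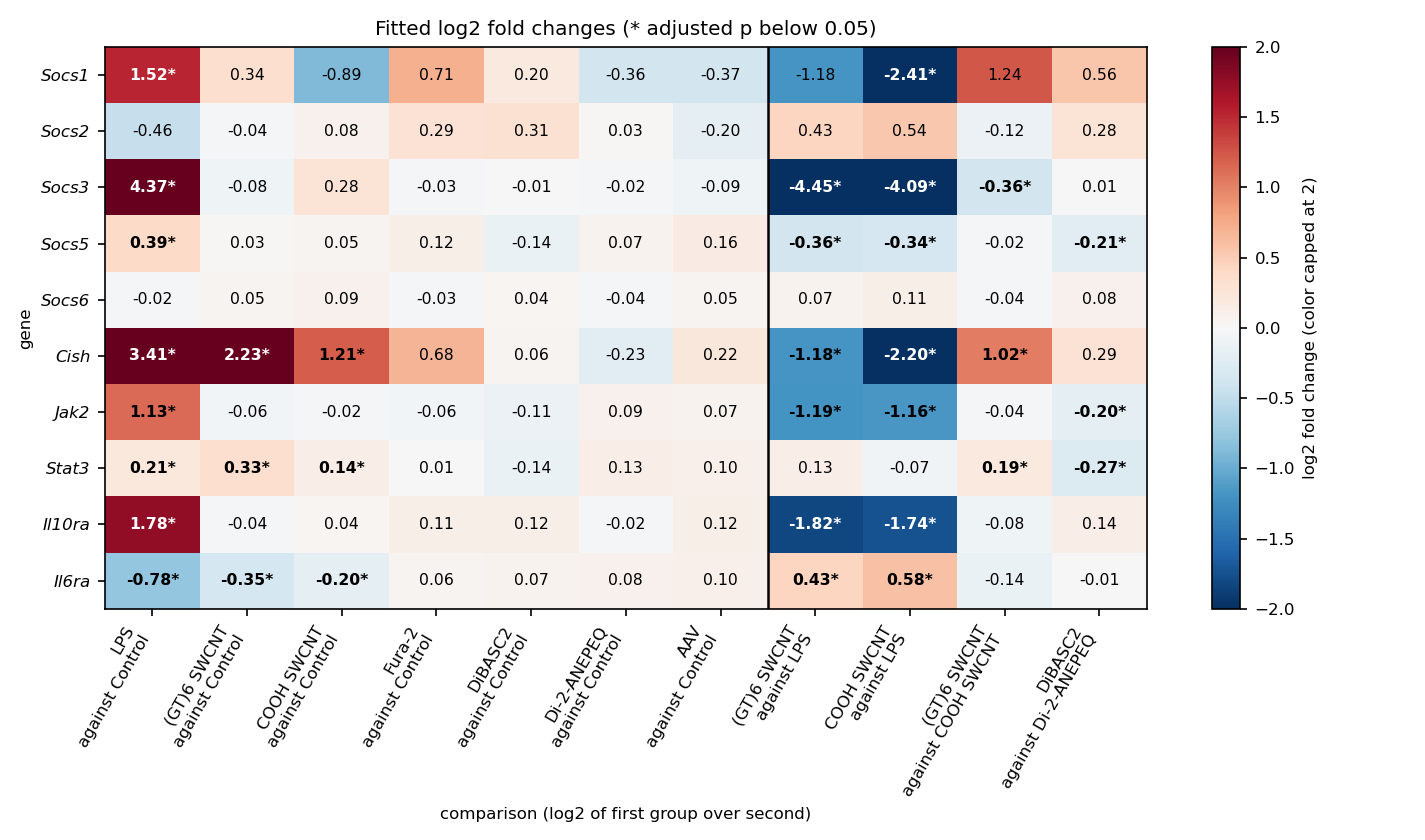
Fitted log2 fold changes of the 10 genes (rows) in 11 comparisons (columns, first group over second), colored on a scale capped at 2. An asterisk marks an adjusted p below 0.05; the LPS column holds 8 marks, each nanotube column against control 3, and the remaining 4 columns against control none.

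Il6ra encodes the chain that binds interleukin-6 and lies on chromosome 3, 89864059 to 89913196, minus strand (GRCm38). Its 3 control libraries were at 71.8, 72.3 and 69.7 CPM, and the LPS libraries were at 45.3, 40.2 and 39.7 CPM. Those of (GT)6 SWCNT were at 56.3, 54.0 and 58.4 CPM, and those of COOH SWCNT at 62.97, 65.4 and 58.0 CPM. All 9 treated libraries lay below all 3 controls, LPS lay below both nanotube groups, and the nanotube groups overlapped each other. Its log2 fold change was −0.78 ± 0.06 in LPS (SE, n = 3 per group, adjusted p = 1.01e-13), −0.35 ± 0.06 in (GT)6 SWCNT (adjusted p = 9.68e-06) and −0.20 ± 0.06 in COOH SWCNT (adjusted p = 0.00761). Without COOH SWCNT replicate 3 the last call was lost (adjusted p = 0.106). From AAV at 76.5 ± 2.18 CPM (SD) down to control at 71.3 ± 1.36, each of the other 5 groups overlapped its neighbour in the order of means. Il6ra shares 242 exon bases with the antisense gene Gm42809, and strand use in the counting is not given in the sources used here, so its value may include reads of that gene.

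Il10ra, the chain that binds interleukin-10, lies on chromosome 9, 45253837 to 45269149, minus strand. Its libraries were at 13.2, 11.7 and 12.9 CPM in control and at 40.7, 42.4 and 45.7 CPM in LPS. The ranges were far apart, and the rise was 3.43-fold (log2 1.78 ± 0.08, adjusted p = 3.85e-20). Outside LPS the 21 libraries of the other 7 groups lay between 11.5 and 14.97 CPM, with every group overlapping the next. In (GT)6 SWCNT the log2 fold change was −0.04, with a 95% interval from −0.24 to 0.16, and in COOH SWCNT it was 0.04, with an interval from −0.16 to 0.23. The interleukin-10 receptor transcript rose in LPS while the interleukin-6 receptor transcript fell in the same libraries.

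Jak2, which encodes a kinase of the JAK family, lies on chromosome 19, 29251828 to 29313080, plus strand. It was at 22.0, 23.1 and 21.6 CPM in control and at 51.6, 48.0 and 47.03 CPM in LPS, with no overlap. This was a 2.19-fold rise (log2 1.13 ± 0.06, adjusted p = 1.52e-17). The nanotube groups overlapped control, at 21.4 ± 1.60 CPM (SD, n = 3) in (GT)6 SWCNT and 21.9 ± 1.75 in COOH SWCNT. Their 95% intervals, −0.21 to 0.08 and −0.17 to 0.12 on the log2 scale, exclude a change of the size seen in LPS.

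Stat3 (chromosome 11, 100885098 to 100939540, minus strand) moved little in fold but was counted deeply, with 1806 to 3413 counts per library. Control libraries were at 99.2, 105 and 97.6 CPM, (GT)6 SWCNT at 130, 127 and 124, LPS at 123, 109 and 118, and COOH SWCNT at 111, 112 and 110 CPM. All 9 of these treated libraries lay above the 3 controls, and (GT)6 SWCNT lay above every library of the other 7 groups. The log2 fold changes were 0.33 ± 0.05 in (GT)6 SWCNT (adjusted p = 1.32e-06), 0.21 ± 0.05 in LPS (adjusted p = 0.00103) and 0.14 ± 0.05 in COOH SWCNT (adjusted p = 0.0381). The COOH SWCNT call was lost in 6 of 13 alternative settings, among them the removal of length and GC trends (adjusted p = 0.194) and leaving out Control replicate 1 or 3 or COOH SWCNT replicate 1 or 2. DiBASC2 was lowest, at 91.6 ± 4.73 CPM, with all 3 libraries below the controls (log2 −0.14 ± 0.05, adjusted p = 0.0931). With length and GC trends removed, that difference was called (adjusted p = 0.0206). Stat3 shares 72 exon bases with Stat5a on the other strand.

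Socs3 encodes the inhibitor that binds the shared interleukin-6 receptor chain and JAK kinases, and it lies on chromosome 11, 117966079 to 117970047, minus strand. Control libraries held 6.54, 5.62 and 7.21 CPM and LPS libraries 122.9, 135.5 and 139.5 CPM (119 to 135 counts against 2262 to 2984). No other gene of the 10 rose as far: 20.7-fold, log2 4.37 ± 0.08 (adjusted p = 3.7e-32), which ranked 31 from the top among the tested genes in that comparison. COOH SWCNT was next, at 8.08, 7.82 and 7.46 CPM, just above the controls with no overlap. Its difference was not called (log2 0.28 ± 0.11, adjusted p = 0.0705), but was called without Control replicate 3 (adjusted p = 0.0318). In (GT)6 SWCNT the libraries were at 6.16, 5.93 and 6.09 CPM, within the range of the controls (log2 −0.08, 95% interval −0.33 to 0.17). The remaining 4 groups averaged between 5.98 and 6.35 CPM and overlapped control.

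The promoter of Socs3 is shown because it holds, in RefSeq's GRCm38.p6 annotation, 1 match to the palindromic letters TTCNNNGAA known from STAT binding sites. The stretch is chr11:117969452-117969616 on the minus strand, from base −250 to base −86 before the RefSeq transcript start, and capitals mark the match. GENCODE begins one Socs3 transcript further upstream, so the stretch lies inside its gene span, in an intron of that transcript.
Socs3: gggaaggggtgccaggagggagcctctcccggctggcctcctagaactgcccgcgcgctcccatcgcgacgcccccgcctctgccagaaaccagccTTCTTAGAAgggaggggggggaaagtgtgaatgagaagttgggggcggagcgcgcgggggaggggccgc
In 300-base windows from 250 bases before to 50 bases after the start, these letters, which read the same on both strands, occurred in 8.30% of 32851 promoters. Windows were given for 6 of the 10 genes (Socs1, Socs3, Cish, Jak2, Stat3 and Il6ra). Matches to TTCNNNGAA were found in those of Socs3 and Cish, and not in those of Socs1, Jak2, Stat3 and Il6ra. A match is a description of letters; no binding was measured.

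Cish encodes the inhibitor CISH, best known for dampening signals through STAT5. It lies on chromosome 9, 107296026 to 107302784, plus strand. Its window holds 2 matches close together at the RefSeq start, in the first 20 transcribed bases (chr9:107296659-107296678, plus strand). GENCODE starts the gene upstream of that point and annotates these bases as untranslated exon. The capitals mark the matches.
Cish: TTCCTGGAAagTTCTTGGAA

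Cish was the one of the 6 SOCS family genes called against control in both nanotube groups as well as in LPS. Control libraries were at 1.10, 1.02 and 0.481 CPM, LPS at 8.75, 9.03 and 10.3, (GT)6 SWCNT at 4.56, 4.51 and 3.16, and COOH SWCNT at 1.90, 2.20 and 2.03 CPM. These 4 groups did not overlap one another and stood in the order LPS, (GT)6 SWCNT, COOH SWCNT, control. The log2 fold changes were 3.41 ± 0.27 in LPS (10.7-fold, adjusted p = 3.48e-13), 2.23 ± 0.30 in (GT)6 SWCNT (4.70-fold, adjusted p = 2.14e-07) and 1.21 ± 0.33 in COOH SWCNT (2.31-fold, adjusted p = 0.00709). The counts were small, with 9 to 24 in a control library. Without Control replicate 3, which held the 9, the COOH SWCNT difference was not called (log2 0.95, adjusted p = 0.059). Fura-2 averaged 1.43 ± 0.389 CPM and overlapped control (log2 0.68, 95% interval −0.07 to 1.43, adjusted p = 0.490). DiBASC2 libraries spread from 0.214 to 1.54 CPM (log2 0.06, 95% interval −0.74 to 0.85, adjusted p = 0.958). Cish shares 261 exon bases with Gm17040 and 479 with Gm17041, both on the other strand, so its value may include their reads.

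Socs1, which inhibits JAK kinases and is known as a brake on interferon signalling, lies on chromosome 16, 10782240 to 10785536, minus strand. Its RefSeq promoter, chr16:10785537-10785786 on the minus strand (base −250 to −1), is shown for 2 overlapping matches to the letters GAAANNGAAA, a pattern known from interferon-response elements. Capitals mark the run that both matches cover, which begins at base −83.
Socs1: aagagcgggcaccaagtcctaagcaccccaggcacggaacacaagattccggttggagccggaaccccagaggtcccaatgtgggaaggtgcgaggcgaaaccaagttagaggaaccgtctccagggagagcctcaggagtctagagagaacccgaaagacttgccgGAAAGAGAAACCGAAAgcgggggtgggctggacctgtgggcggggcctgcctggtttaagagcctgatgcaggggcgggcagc
These letters, searched on both strands (TTTCNNTTTC on the other), occurred in 3.44% of the 32851 windows. The windows of Socs3, Cish, Jak2, Stat3 and Il6ra did not hold them.

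Socs1 was barely expressed. Control libraries held 7, 4 and 5 counts and LPS libraries 3, 23 and 21, or 0.385, 0.170 and 0.267 CPM against 0.163, 1.12 and 0.982 CPM. LPS replicate 1 was as low as the controls, so the groups overlapped. The rise was called in the fit (log2 1.52 ± 0.53, adjusted p = 0.0268), but the call was lost without Control replicate 2, Control replicate 3, LPS replicate 2 or LPS replicate 3 (adjusted p up to 0.188). Over all 24 libraries the highest count was 23, in LPS.

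Socs5 (chromosome 17, 87107679 to 87137839, plus strand), a less studied member linked to restraint of interleukin-4 and growth factor signals, rose modestly in LPS. Its control libraries were at 26.7, 28.3 and 28.3 CPM and the LPS libraries at 35.7, 35.8 and 37.5 CPM. LPS lay above every library of the other 7 groups (log2 0.39 ± 0.07, adjusted p = 1.19e-05). Socs2 (chromosome 10, 95385362 to 95417180, minus strand), a brake on growth hormone signalling, was at 2.37 ± 0.559 CPM in control (SD, n = 3) and lowest in LPS at 1.75 ± 0.348, with overlap (log2 −0.46, 95% interval −1.01 to 0.09, adjusted p = 0.206). Socs6 (chromosome 18, 88665224 to 88927481, minus strand) stayed between 24.5 and 29.9 CPM in all 24 libraries. Its log2 fold change in LPS was −0.02, with an interval from −0.18 to 0.14. Neither Socs2 nor Socs6 was called in any of the 11 comparisons with the main settings. With no low-count filter, Socs2 was called higher in COOH SWCNT than in LPS (adjusted p = 0.0474).

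The nanotube groups were also set against LPS and against each other. Against LPS, 6 of the 10 genes were called in (GT)6 SWCNT (background 21.6%) and 7 in COOH SWCNT (background 37.8%). Both comparisons share the LPS libraries. Il6ra was higher than in LPS in each, by 0.43 ± 0.06 and 0.58 ± 0.06 on the log2 scale (adjusted p = 3.67e-07 and 2.98e-10). Socs3, Socs5, Cish, Jak2 and Il10ra were lower in each. For Socs3 the log2 fold changes were −4.45 ± 0.08 in (GT)6 SWCNT and −4.09 ± 0.08 in COOH SWCNT, and for Cish they were −1.18 ± 0.20 and −2.20 ± 0.22. Socs1 was lower in COOH SWCNT (−2.41 ± 0.58, adjusted p = 0.000923), at 2 to 5 counts per library. Stat3 in (GT)6 SWCNT was above LPS by 0.13 ± 0.05, which missed the threshold (adjusted p = 0.0576) and passed it in 4 of 13 alternative settings, such as without LPS replicate 1 or (GT)6 SWCNT replicate 3. In COOH SWCNT Stat3 was not called against LPS (log2 −0.07 ± 0.05, adjusted p = 0.285), but was called lower with length and GC trends removed (adjusted p = 0.0016).

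Set against each other, the nanotube groups differed in 3 of the 10 genes, where 21.4% of tested genes were called. Cish was 2.03-fold higher in (GT)6 SWCNT than in COOH SWCNT (log2 1.02 ± 0.24, adjusted p = 0.00228). Stat3 was also higher there (log2 0.19 ± 0.05, adjusted p = 0.00298). Socs3 went the other way, lower in (GT)6 SWCNT (log2 −0.36 ± 0.11, adjusted p = 0.0165), although this call was lost without (GT)6 SWCNT replicate 2 or COOH SWCNT replicate 1 (adjusted p up to 0.0828). So Cish and Socs3, inhibitors of the same family, differed in opposite directions between the types of nanotube. The lower Il6ra of (GT)6 SWCNT was not called (log2 −0.14 ± 0.06, adjusted p = 0.0621), and was called in 3 of 13 alternative settings, among them without COOH SWCNT replicate 3.

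**Figure D3:**
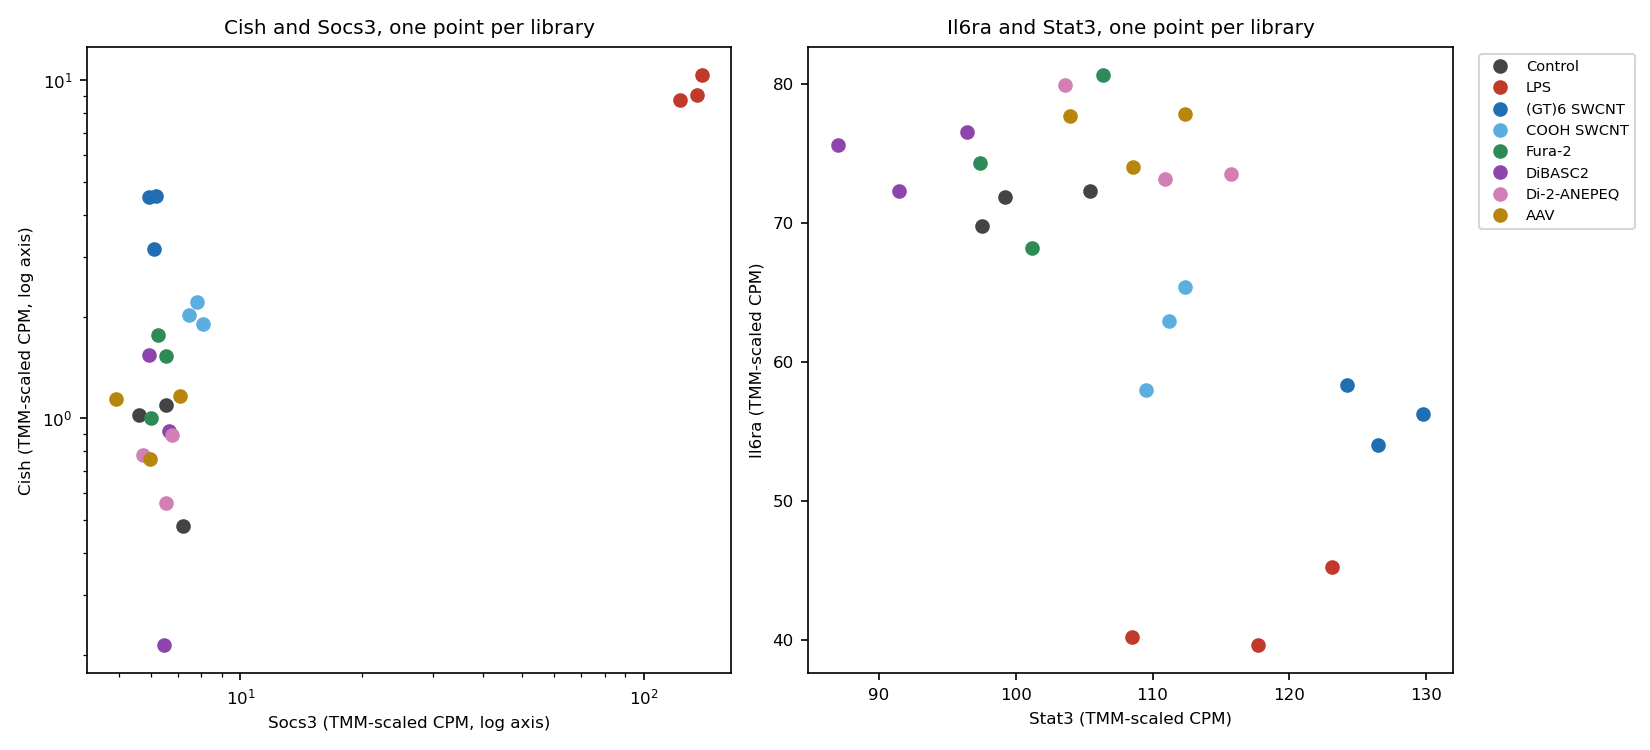
Left, Cish against Socs3 on log axes; right, Il6ra against Stat3 on linear axes that do not start at 0, all in TMM-scaled CPM with a point for each of the 24 libraries, colored by group. On the left (GT)6 SWCNT is raised in Cish alone (3.16 to 4.56 CPM) while LPS is raised in both genes; on the right the LPS, (GT)6 SWCNT and COOH SWCNT libraries lie at higher Stat3 and lower Il6ra than control.

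The dyes DiBASC2 and Di-2-ANEPEQ, neither of which called any of the 10 against control, differed from each other in 3 genes, all lower in DiBASC2, where 8.95% of tested genes were called and 5.48% were lower. Stat3 was lower in DiBASC2, with libraries at 87.0, 91.5 and 96.4 CPM against 116, 111 and 104 CPM in Di-2-ANEPEQ. The groups did not overlap (log2 −0.27 ± 0.05, adjusted p = 0.000234), and the call held in each alternative setting. Socs5 (−0.21 ± 0.06, adjusted p = 0.0317) and Jak2 (−0.20 ± 0.06, adjusted p = 0.0459) were lower too. Both of these calls were lost with upper-quartile factors and without DiBASC2 replicate 1, DiBASC2 replicate 2 or Di-2-ANEPEQ replicate 2, and the adjusted p reached 0.145 for Socs5 and 0.220 for Jak2. Socs5 was also lost without Di-2-ANEPEQ replicate 3, and Jak2 without DiBASC2 replicate 3 or Di-2-ANEPEQ replicate 1, with no low-count filter and with only the 2 groups in the model.

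Other genes followed the group means of Cish, Stat3 and Il6ra closely. By Pearson's r over the 8 group means of log2 CPM, among about 9493 genes averaging at least 5 CPM, Cish was most like Vps37a (0.986), Rhof (0.984) and Csf1 (0.984). Stat3 was most like Taf1 (0.984), Mef2a (0.983) and Larp1b (0.981), and Il6ra most like Zbtb1 (0.997), Zfp28 (0.997) and Dcaf5 (0.995). With 8 points from the same libraries and so many candidates, these values of r are a description.

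Further genes of the pathway came from 5 lists. Of 20 cytokines that signal through JAK kinases, 12 were tested, and in LPS 11 rose and 0 fell. Over all tested genes 13.8% rose and 14.5% fell there. The median log2 fold change of the 12 was 4.03 beside −0.01 over all tested genes. In 5 of them every control library held at most 3 counts. These 5 also stood at a floor of 3 counts per library in every treatment but LPS. They passed the low-count filter through LPS alone, so their rises there follow from the filter and are no support. The count of 11 and the median of 4.03 include them. With these 5 set against a control floor of 3 counts per library, the median of the 12 was 2.71. Named by their fitted values, which are no bounds at such counts, were Csf3 and Il12b. Csf3 was at 35.7 ± 2.73 CPM in LPS, with no more than 1 count in any control library. Il12b, with 0 counts in each control library, was at 1.12 ± 0.591 CPM in LPS, 7.40 times the control floor. Il6 and Il10, the ligands of the receptors above, were added to the named genes for that reason. Il6 rose from 0.201 ± 0.0270 to 39.99 ± 2.84 CPM (log2 7.62 ± 0.19, adjusted p = 1.28e-28), and Il10 from no more than 2 counts in a control library to 0.703 ± 0.130 CPM (adjusted p = 0.000258).

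In (GT)6 SWCNT 4 of the 12 cytokines rose and 1 fell, where 9.90% of all tested genes rose and 10.5% fell. Il6 reached 0.746 ± 0.110 CPM (log2 1.90 ± 0.39, adjusted p = 0.000347), far under its LPS level, and Lif, a cytokine that acts through the interleukin-6 family receptor chain, reached 3.42 ± 0.211 CPM (1.57 ± 0.22). Osm, of the same family and named here after its values were seen, reached 67.65 ± 4.15 CPM from 26.5 ± 1.93 in control (1.35 ± 0.06, adjusted p = 2.06e-19), beside 74.6 ± 0.754 CPM in LPS (adjusted p = 1.90e-21). Il15 fell by 0.86 ± 0.18 on the log2 scale (adjusted p = 0.000281). In COOH SWCNT 2 rose, Lif (1.46 ± 0.22) and Osm (0.94 ± 0.06), both of the interleukin-6 family. Of all tested genes 20.0% were called there. The 12 include the 5 genes at the floor in control and in every treatment but LPS. Those 5 could hardly be called outside LPS, so they lower each share of the 12 there. Osm fell by 0.56 ± 0.07 in DiBASC2 (adjusted p = 8.49e-07), the 1 cytokine called there, while Fura-2, Di-2-ANEPEQ and AAV called 0 of the 12 with edgeR, with DESeq2 and at an unadjusted p under 0.05. The DiBASC2 count became 2 with the DESeq2 test, with length and GC trends removed, and without Control replicate 2 or DiBASC2 replicate 3. Of all tested genes 5.47% were called in DiBASC2, 0.252% in Fura-2, 3.08% in Di-2-ANEPEQ and 5.00% in AAV.

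Of 22 other receptor chains, 15 were tested. Of all tested genes, 28.3% were called in LPS, 20.4% in (GT)6 SWCNT, 20.0% in COOH SWCNT, 5.47% in DiBASC2 and 5.00% in AAV. In LPS 9 rose and 0 fell, with a median log2 fold change of 0.18, led by Il15ra (0.42 ± 0.11) and Il4ra (0.41 ± 0.06). The Il15ra call was lost without Control replicate 2 (adjusted p = 0.0703). In (GT)6 SWCNT 2 rose and 6 fell (median −0.17), the rises being Il2rg (0.19 ± 0.06) and Csf2ra (0.17 ± 0.05) and the deepest falls Il15ra (−0.55 ± 0.13) and Csf2rb (−0.28 ± 0.04). Without (GT)6 SWCNT replicate 1 the count was 5, with 1 higher and 4 lower, and both rises were lost without (GT)6 SWCNT replicate 2. Il15ra thus rose in LPS and fell in (GT)6 SWCNT, against the same controls. In COOH SWCNT 1 rose (Csf2rb2, 0.21 ± 0.05) and 1 fell (Il15ra, −0.35 ± 0.12, lost without Control replicate 1, among others). These 2 of 15 are under the share of all genes. In DiBASC2 1 rose and 1 fell, and neither was called without DiBASC2 replicate 3. In AAV the 1 called, Ifngr2 (−0.16 ± 0.04), was lost without Control replicate 1 or AAV replicate 2. Fura-2 and Di-2-ANEPEQ called 0 of the 15 with edgeR, against 1 and 4 at an unadjusted p under 0.05 and 0 and 1 with DESeq2.

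Among 8 tested kinases and STATs, Stat2, which carries interferon signals, fell in 3 groups: LPS (−0.90 ± 0.13, adjusted p = 3.94e-07), (GT)6 SWCNT (−0.71 ± 0.12, adjusted p = 2.64e-05) and COOH SWCNT (−0.36 ± 0.12, adjusted p = 0.0228), while Stat3 rose in each. In COOH SWCNT the Stat2 call was lost without Control replicate 2, Control replicate 3 or COOH SWCNT replicate 3. LPS called 2 of the 8 higher, Tyk2 (0.31 ± 0.06) and Stat6 (0.15 ± 0.04), and 3 lower, with Stat5a at −0.31 ± 0.10. Of all tested genes, 13.8% were called higher and 14.5% lower there. Without Control replicate 3 the lower calls were 1 in place of 3. Stat2 was the 1 call in (GT)6 SWCNT. The count there was 3, with 2 higher and 1 lower, with the DESeq2 test, with length and GC trends removed and with only the 2 groups in the model, and 2 with upper-quartile factors and without Control replicate 2, (GT)6 SWCNT replicate 2 or (GT)6 SWCNT replicate 3. In COOH SWCNT Stat6 (0.22 ± 0.04) was the other call. Of all tested genes 20.4% were called in (GT)6 SWCNT and 20.0% in COOH SWCNT, so 1 and 2 of the 8 are near those shares. The remaining 4 groups called 0 of the 8 with edgeR. At an unadjusted p under 0.05 the counts there were 1 in Fura-2, 3 in DiBASC2, 2 in Di-2-ANEPEQ and 2 in AAV, and DESeq2 called 1, in DiBASC2. Without Control replicate 3 or DiBASC2 replicate 1 the DiBASC2 count was 1, and with upper-quartile factors 2.

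All 17 other brakes on the pathway were tested. The 5 called in LPS and 5 in (GT)6 SWCNT stand beside 28.3% and 20.4% of all tested genes. COOH SWCNT called 3 of the 17, near its share of 20.0% of all tested genes. Fura-2 called 1, Di-2-ANEPEQ 1 and AAV 2, beside 0.252%, 3.08% and 5.00%. In DiBASC2 the share of all tested genes was 5.47%. In LPS 2 rose (Socs7, 0.23 ± 0.06, and the phosphatase Ptpn2, 0.20 ± 0.05) and 3 fell, the lowest being Usp18 (−0.35 ± 0.13) and Pias3 (−0.34 ± 0.13). That count was 3 without Control replicate 1, Control replicate 3 or LPS replicate 1, and the Usp18 call was lost without any 1 of 5 libraries. The Pias3 call was lost in 9 of 13 alternative settings, among them without Control replicate 1, Control replicate 3, LPS replicate 1 or LPS replicate 3 (adjusted p up to 0.194). The Ptpn2 call was lost with length and GC trends removed (log2 0.09, adjusted p = 0.220). In (GT)6 SWCNT 4 rose, led by Sh2b3 (0.24 ± 0.05) and Ptpn2 (0.19 ± 0.05), and Usp18 fell (−0.52 ± 0.13). In COOH SWCNT 1 rose, Sh2b3 (0.17 ± 0.05), and 2 fell, Eloc (−0.32 ± 0.06) and Rnf7 (−0.15 ± 0.05). Without Control replicate 3 the count there was 1. Eloc, a subunit of the ubiquitin ligase that SOCS boxes recruit, was also called lower in Fura-2 (−0.27 ± 0.06), Di-2-ANEPEQ (−0.28 ± 0.06) and AAV (−0.26 ± 0.06). These 4 comparisons share the control libraries, at 101 ± 7.32 CPM, and the calls in Fura-2, Di-2-ANEPEQ and AAV were lost without Control replicate 1. In AAV Cul5 (0.16 ± 0.04) rose as well, and 0 of the 17 were called there without AAV replicate 2. DiBASC2 called 0 of the 17 with edgeR, 4 at an unadjusted p under 0.05 and 1 with DESeq2.

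Of 20 genes known to respond to STAT3 in cytokine-treated cells, 19 were tested. Many of them also respond to other factors. In LPS 14 rose and 2 fell, with a median log2 fold change of 0.79, where 13.8% of all tested genes rose and 14.5% fell. Myc (3.70 ± 0.14) and Tnfaip3 (3.19 ± 0.06) rose most, and Ccnd1 (−0.67 ± 0.04) and Fos (−0.62 ± 0.10) fell. In (GT)6 SWCNT 12 rose and 2 fell (median 0.34), and in COOH SWCNT 13 rose and 2 fell (median 0.32). Over all tested genes 9.90% rose and 10.5% fell in (GT)6 SWCNT, and 9.39% rose and 10.6% fell in COOH SWCNT. Il1rn, which encodes the interleukin-1 receptor antagonist, led both, at 2450 ± 176 CPM in (GT)6 SWCNT and 1310 ± 45.6 CPM in COOH SWCNT against 580 ± 80.0 CPM in control. Its log2 fold changes were 2.08 ± 0.08 (adjusted p = 5.25e-22) and 1.18 ± 0.08 (adjusted p = 1.75e-14). Myc came next in each, at 1.78 ± 0.17 and 1.15 ± 0.18. Irf9 fell in each, by log2 fold changes of −0.54 ± 0.14 and −0.70 ± 0.14, with Ccnd1 (−0.33 ± 0.04) in (GT)6 SWCNT and Birc5 (−0.12 ± 0.04) in COOH SWCNT. The Irf9 call in (GT)6 SWCNT was lost without Control replicate 1, and that of Birc5 in 9 of 13 alternative settings, including without any 1 control library.

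In DiBASC2 the direction was the other way: 0 of the 19 rose and 8 fell (median −0.17), where 3.64% of all tested genes fell. Il1rn fell by 0.70 ± 0.08 on the log2 scale, to 356 ± 10.5 CPM (adjusted p = 4.9e-08), and Junb fell by 0.42 ± 0.06 (adjusted p = 1.21e-05). DiBASC2 was also the group with the lowest mean of Stat3 and Osm, though Stat3 was not called there (adjusted p = 0.0931). A link to these falls was not tested. AAV called 1 of the 19, Pim1 (0.20 ± 0.06, adjusted p = 0.0305), where 5.00% of all tested genes were called. The Pim1 call was lost without Control replicate 2, Control replicate 3, AAV replicate 2 or AAV replicate 3. Fura-2 and Di-2-ANEPEQ called 0 of the 19 with edgeR and with DESeq2, and 3 and 0 at an unadjusted p under 0.05. With no low-count filter 3 were called in Fura-2. Of all tested genes 0.252% were called in Fura-2 and 3.08% in Di-2-ANEPEQ.

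**Figure D4:**
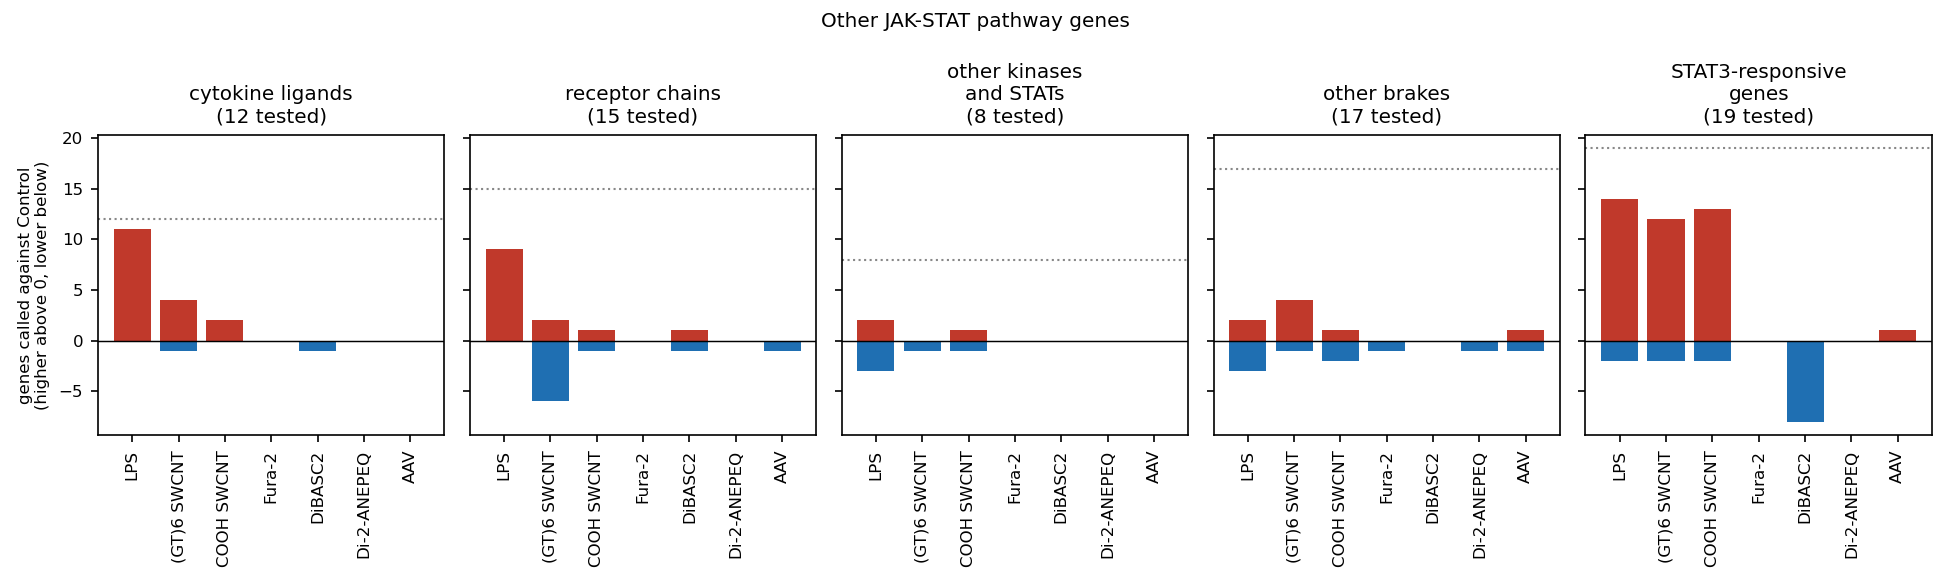
Genes of 5 pathway lists called against control (y axis, number of genes; higher above 0, lower below 0) in the 7 treatments (x axis); dotted lines mark the number of genes tested in a list. The STAT3-responsive panel shows 14, 12 and 13 genes higher in LPS, (GT)6 SWCNT and COOH SWCNT, and 8 lower in DiBASC2.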

How the data were processed

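Poly-A RNA was sequenced in 24 libraries, 3 in each of 8 groups named by the sample titles; spellings of the dyes vary between labels. The authors deposited raw read counts per gene, whole numbers for 54838 versioned Ensembl identifiers. Per the submitters' processing notes, STAR 2.5.4b and build GRCm38.p6 were used; the counting tool, strand setting and annotation are not given in the sources used here. Symbols and positions are from GENCODE M21 (GRCm38), which matched 54809 identifiers without their version and 53947 with it. The identifiers of Socs6 and Jak2 carry another version there. Promoters are RefSeq's, GRCm38.p6.

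Counts were tested with edgeR 4.0.16 in R 4.3.3: filterByExpr, TMM factors and a quasi-likelihood model with a mean per group over all 24 libraries (16 residual degrees of freedom). The 11 comparisons were adjusted by Benjamini-Hochberg over 13116 genes each and called at an adjusted p under 0.05, two-sided; all adjusted p-values come from this test. SE is the absolute log2 fold change divided by the square root of F. The biological coefficient of variation was 4.12%. CPM are TMM-scaled. The model was tested on simulated data, with 50 genes changed at each size in LPS against control. At log2 −2, −1, 1 and 2 it recovered 44, 43, 44 and 50, with 9 false calls. Far fewer genes were changed there than the 3717 called in LPS.

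The 10 genes and the lists were chosen with earlier results of these data known. Other pathway genes were named by rule, at most the 2 highest and 2 lowest called per list and comparison. Alternatives used DESeq2 1.42.0 and other settings given at the end. Index numbers run in blocks of 3 per group, so library order and group cannot be told apart. Each library counted as 1 sample. Replicates differed by 2.46 to 19.4 chi-square units per degree of freedom, above counting noise, which cannot separate independent cultures from separate preparations.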

Additional observations from a re-analysis of the deposited data

How the results depend on the processing

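For the 10 genes, other settings were tried one at a time: upper-quartile factors, size factors of DESeq2, its test, the removal of length and GC trends, no low-count filter, a model with the compared groups alone, a replicate block, and each library left out. No log2 fold change of a called gene changed sign. Outside the left-out libraries, called differences stayed called in 223 instances and lost the call in 6, and with a library left out in 177 and 21. Differences not called in the main fit became called in 7 instances, and with a library left out in 6. The number of the 10 called in DiBASC2 against control went from 0 to 1 (Stat3) with length and GC trends removed. In DiBASC2 against Di-2-ANEPEQ it went from 3 to 1 with upper-quartile factors and ranged from 1 to 2 with a library left out. The cause was not tested. The same alternatives were added for the other pathway genes after seeing the data, and calls of the named ones were lost in 32 instances and, with a library left out, in 86.

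Replicate numbers do not pair the libraries: of 33 same-numbered pairs 0 correlated above 0.1 in their deviations (−0.104 to 0.07), and 2 of 24 libraries were most like one of their own number. With the replicate block the Stat3 call in COOH SWCNT was lost (adjusted p = 0.0506) and its count went from 3 to 2; no other call of the 10 genes changed.

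Scaling moved the median of all genes by at most 0.05 (log2). With upper-quartile factors the share of called genes that were higher was 35.4% in LPS against 48.7%, 54.9% in DiBASC2 against 33.3%, 26.3% in AAV against 36.7%, and 63.4% in DiBASC2 against Di-2-ANEPEQ against 38.8%. It was 57.5% and 62.5% in (GT)6 SWCNT and COOH SWCNT against LPS (44.6% and 47.9%), and 44.4% between the nanotube groups (55.6%). With length and GC trends removed it was 34.7% in COOH SWCNT (46.9%), 19.5% in DiBASC2, 51.3% in AAV, 70.5% between the nanotube groups and 21.5% between the dyes. All genes called in DiBASC2 numbered 1260 with these trends removed, against 717, and in Fura-2 53 against 33. Depth limits Socs1, Cish and Socs2, whose counts were low.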
